A study of Rattus norvegicus with 8 samples.

Results

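Histones are the proteins around which DNA is wound, and the transcripts of their genes come in 2 kinds. Replication-dependent histone genes lie in clusters, are transcribed mainly while a cell copies its DNA, and make mRNAs that normally end in a short stem-loop, bound by the stem-loop binding protein SLBP, in place of a poly(A) tail. Variant histone genes mostly lie singly, are expressed through the cell cycle or in resting cells, and mostly make ordinary polyadenylated mRNAs. In cells that leave the cycle, clustered histone transcripts that carry a poly(A) tail are also known.

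The set described here holds the 53 probes, for 39 genes, whose gene name in the array files starts with Hist, an optional digit and h, or with H1f, H2a, H2b or H3f. They are 53 of the 30367 gene probes on the array. Names that start with Hist, called clustered below, cover 38 probes for 28 genes, and the remaining names, called variant, cover 15 probes for 11 genes. By type there were 10 probes for H1, 22 for H2A, 13 for H2B (all clustered), 2 for H3 and 6 for H4. Members were chosen by name and not by signal.

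The arrays measured total RNA of N27 cells, an immortalised rat line from embryonic midbrain that the labels describe as dopaminergic. There were 4 groups of 2 arrays. The groups were control cells, cells given 150 µM manganese (Mn) for 48 h, cells given 250 µM MPP+ for 48 h, and cells given 3-NPA, for which no dose or time is given in the sources used here. MPP+ is the active metabolite of the toxin MPTP and inhibits complex I of the respiratory chain, and 3-NPA, 3-nitropropionic acid, inhibits succinate dehydrogenase. The labels do not say whether the 2 arrays of a group came from separate cultures, so the p-values reflect no more than how far replicate arrays lay apart, which may be technical. The 3-NPA arrays alone were read out in a second feature extraction run, so that run and 3-NPA cannot be told apart. All comparisons with control share the same 2 control arrays.

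Each value below is a level, meaning the log2 processed intensity of a probe minus the 75th percentile of its array, or a difference between 2 groups' mean levels, in log2 units ± SE. Probes entered the test where some group had a signal well above background on each of its arrays. A probe was called if its adjusted p, by limma over all 19460 probes tested, was under 0.05. Between 32711 and 41354 spots per array were well above background, no spot was saturated, and the correlation between the 2 arrays of a group was 0.990 to 0.997. Of the dopaminergic marker genes on the array, 3 of 8 were well above background on all 8 arrays, among them tyrosine hydroxylase (Th), and 2 were above it on none, the dopamine transporter Slc6a3 and Foxa2. The neuronal markers Snap25, Syp and Nefl and the progenitor gene Sox2 were above background on no array, while Nes and Vim were above it on all 8. The log2 of the summed level of the neuronal list lay at 0.71 to 0.78 in control, 1.02 to 1.45 in Mn, 1.15 to 1.25 in MPP+ and 2.09 to 2.25 in 3-NPA. Only 2 genes of that list were tested: Tubb3 was called higher in all 3 comparisons, and Map2 lay lower in Mn (-0.93, not called), MPP+ (-0.71, not called) and 3-NPA (-0.80, called). In the same order the dopaminergic list lay at -0.54 to -0.42, -0.44 to -0.39, -0.57 to -0.44 and -0.26 to -0.23, and the progenitor list at 3.63 to 3.83, 4.45 to 4.51, 4.01 to 4.07 and 4.03 to 4.08. Of other cell types, 3 of 5 microglia, 1 of 4 astrocyte and 1 of 5 fibroblast marker genes were well above background on all 8 arrays. In each of these lists 1 gene was above it on none, namely Ptprc, S100b and Dcn. The astrocyte list lay at -2.03 to -1.58 over all arrays, the microglia list at -1.29 to -1.08, -1.20 to -1.09, -1.99 to -1.84 and -0.87 to -0.74, and the fibroblast list at 0.32 to 0.51, 0.78 to 0.80, -0.53 to -0.43 and 1.26 to 1.29. The part of these lists in the results was not tested. In bulk RNA, fewer cells of a kind and less RNA per cell cannot be told apart, which here applies to the share of cells copying their DNA.

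Histone genes are close copies of each other, and a probe may read several of them. Of the 53 probes, 20 are listed in the array files against more than 1 RefSeq accession. In the rat genome build rn4 used by the array files, 26 clustered probes for 19 genes lie on chr17:48289767-50436391, 6 probes for 5 genes on chr2:191023300-191081774 and 4 probes for 3 genes on chr10:45238682-45247403. The 2 Hist1h2an probes carry no position in the files. The 4 probes of the H2B coding region show how close the copies are. They are printed with the bases that differ from the Hist1h2bc probe starting at base 106 in capitals, each from its 5′ end, with the rn4 position as the files give it.
Hist1h2bc from base 106, chr17:50118991-50119050, minus strand: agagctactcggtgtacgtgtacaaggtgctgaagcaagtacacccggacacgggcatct
Hist1h2bc from base 90, chr17:50119007-50119066, minus strand: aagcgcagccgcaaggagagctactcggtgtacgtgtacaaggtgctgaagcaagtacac
Hist1h2bd from base 111, chr17:50429478-50429536, minus strand: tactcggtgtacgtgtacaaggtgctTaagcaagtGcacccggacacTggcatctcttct
Hist1h2bl from base 105, chr17:48771978-48772037, plus strand: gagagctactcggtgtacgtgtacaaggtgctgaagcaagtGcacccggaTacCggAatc

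Over their overlap with the first of these, the second Hist1h2bc probe had 0 mismatches in 44 bases, the Hist1h2bd probe 3 in 55 and the Hist1h2bl probe 4 in 59. The Hist1h2bc probe starting at base 106 is listed against 4 gene names of the set, Hist1h2bc, Hist1h2bd, Hist1h2bh and Hist1h2bo. Values of such probes are therefore given by probe, as the gene name and the base of the transcript where the probe starts, and not as the level of 1 gene.

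The second feature shown is the histone stem-loop. A run of 6 bases, a loop of 4 and the reverse complement of the 6 was searched for in the histone probes, and 1 such run was found. Its letters, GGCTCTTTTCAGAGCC, occurred, in the sense direction, in 9 of the 30367 gene probes (0.0296%) and in 3 of the 53 histone probes (5.66%). On the opposite strand they occurred in no probe. For the 3 histone probes, 30 bases around the stem-loop are printed, with the stem-loop in capitals.
Hist1h2ai from base 378, chr17:50387858-50387917 for the whole probe, plus strand: accaaaGGCTCTTTTCAGAGCCacctataa
Hist1h2an from base 508: aagaacaaaGGCTCTTTTCAGAGCCatcta
Hist1h2an from base 547: GGCTCTTTTCAGAGCCatctacttacttca

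The Hist1h2ai probe runs 8 bases past the stem-loop and the Hist1h2an probe from base 508 runs 5 bases past it, so both lie almost wholly in the body of the message. The Hist1h2an probe from base 547 begins with the stem-loop and runs 44 bases past it, downstream of where a processed replication-dependent histone mRNA normally ends. The cDNA was primed with oligo dT, per the labels. What share of the signal came from tailed transcripts was not tested.

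Of the 53 probes, 46 were tested, 34 clustered and 12 variant, and 41 were well above background on all 8 arrays. The 7 not tested were probes for Hist1h1t, Hist1h2aa, Hist1h2ba and Hist2h2ab among clustered genes and for H1fnt, H2afb3 and H2afy2 among variant genes. Hist1h1t, Hist1h2aa, Hist1h2ba and H1fnt encode testis histones.

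More clustered histone probes fell than rose in each comparison with control, and variant probes were called in 3-NPA in both directions. Of the 12 variant probes, none was called in Mn and 1 in MPP+, counts near the 7.06% and 13.1% of all probes called. In Mn, 12 of 46 histone probes were called, 1 higher and 11 lower, beside 7.06% of all probes tested (4.16% higher, 2.9% lower). All 12 were clustered. In MPP+, 19 were called, 3 higher and 16 lower, beside 13.1% of all probes (7.09% higher, 6.04% lower), and 18 of the 19 were clustered. Among the 3 higher, the Hist3h2bb probe from base 608 entered the test only through its MPP+ arrays. In 3-NPA, 29 were called, 5 higher and 24 lower, beside 37% of all probes (21.6% higher, 15.4% lower). These 29 were 1 higher and 20 lower of 34 clustered probes and 4 higher and 4 lower of 12 variant probes.

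Over every member, tested or not, the median difference of the 38 clustered probes was -0.50 in Mn, -0.25 in MPP+ and -0.99 in 3-NPA. The medians of the 15 variant probes were -0.21, -0.16 and -0.21. Over all 30328 probes, tested or not, the medians were -0.22, -0.22 and -0.27, so those of the variant probes, and of the clustered probes in MPP+, lay near the background. Among tested probes the medians were -0.47, -0.17 and -0.99 for clustered, -0.18, -0.15 and -0.055 for variant, and -0.01, 0.02 and 0.05 for all. By type the 13 H2B probes had medians of -0.91, -0.66 and -1.74 (over the 12 tested, -0.83, -0.38 and -1.69), and all 13 lay below control in Mn and in 3-NPA. Among them, Hist1h2ba, Hist2h2be and Hist3h2bb from base 608 were above background on no control array, so their side of control is not informative. The 6 H4 probes, all tested, had medians of -0.48, -0.61 and -0.91. The 22 H2A probes had medians of -0.09, -0.15 and -0.19, with clustered members from -2.68 to 0.33 in 3-NPA among those tested. The 10 H1 probes had medians of -0.12, -0.17 and -0.31, and the 2 H3 probes -0.07, -0.11 and -0.96. The arrays did not overlap between treated and control for 28 of 46 histone probes in Mn, 30 in MPP+ and 39 in 3-NPA, beside 50.1%, 63% and 71.5% of all probes. The number of calls in Mn fell from 12 to 5 without control replicate 2, to 4 without Mn replicate 1 and to 7 without control replicate 1, Mn replicate 2 or either MPP+ replicate. In MPP+ it fell from 19 to 9 without MPP+ replicate 1 and to 7 without replicate 2, and in 3-NPA it stayed at 22 to 28. With each array set at its median in place of its 75th percentile, higher calls over all probes went from 59.0% to 70.4% of calls in Mn, from 54.0% to 71.7% in MPP+ and from 58.5% to 42.6% in 3-NPA.

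**Figure D1:**
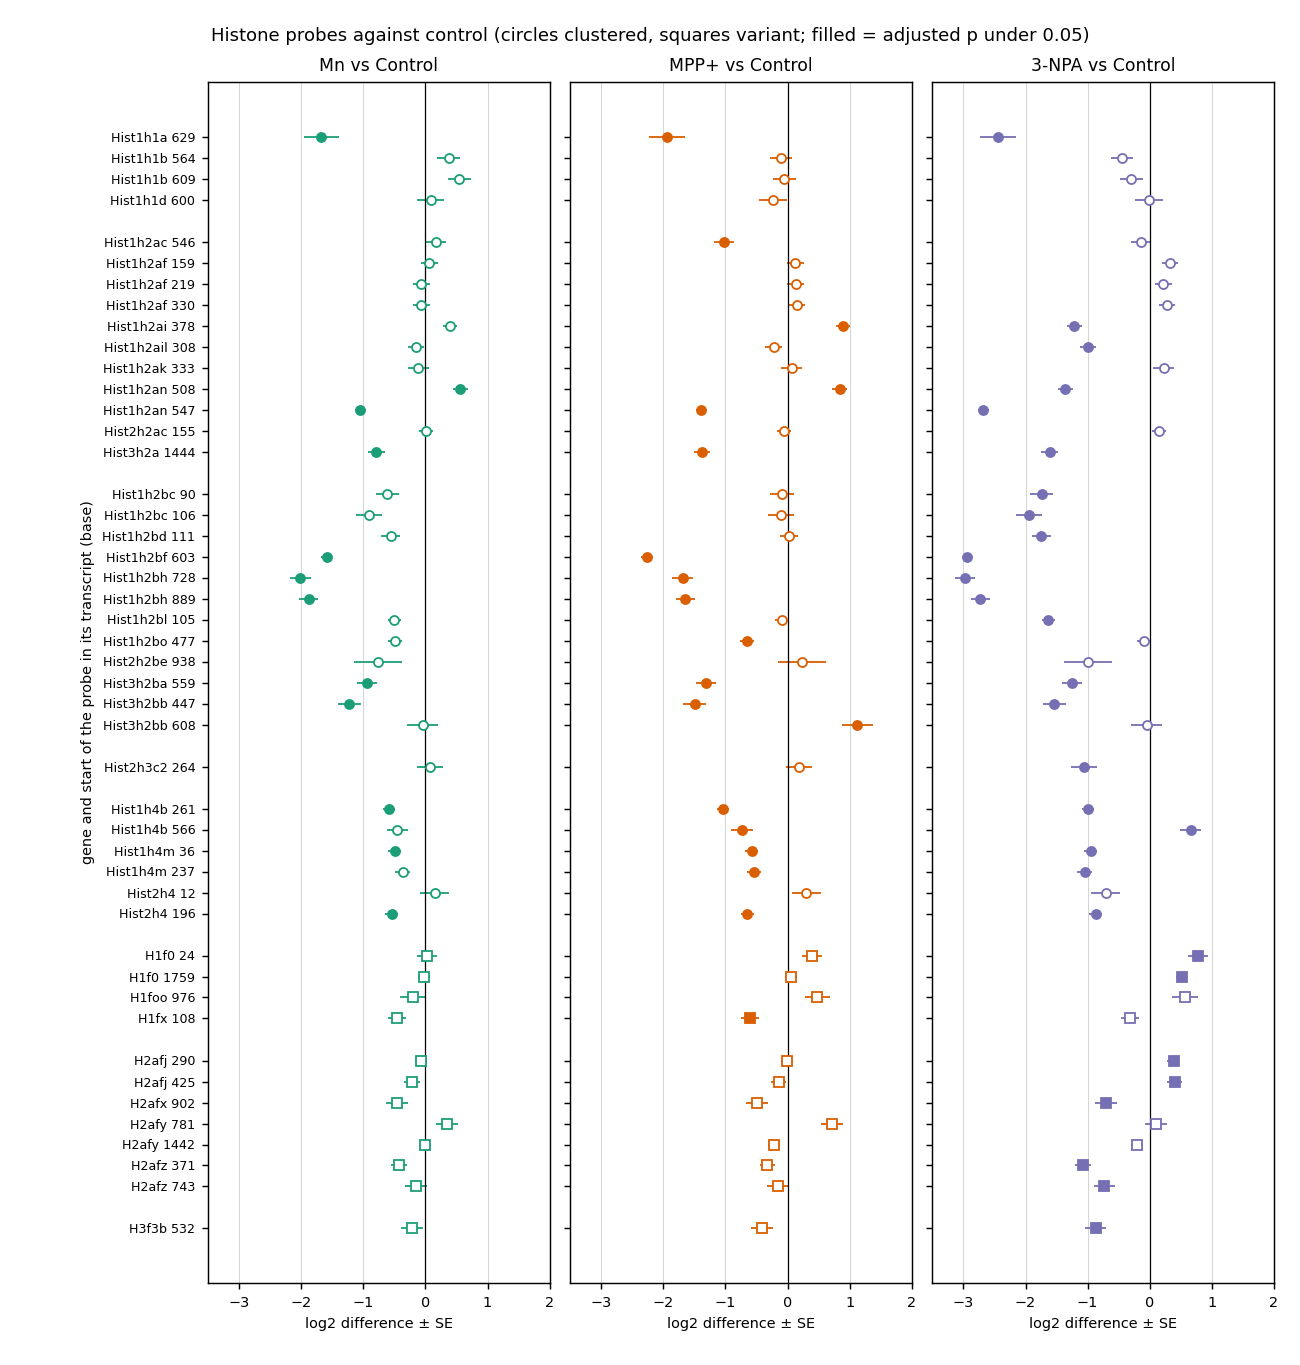
Log2 difference ± SE from control (horizontal axis) for the 46 tested histone probes (rows, gene and first base), in Mn, MPP+ and 3-NPA. Circles are clustered and squares variant probes, blocks of rows are the types H1, H2A, H2B, H3 and H4, and filled symbols are called; in 3-NPA 20 of 34 clustered probes were called lower, against 4 of 12 variant probes lower and 4 higher.

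Probes named for Hist1h2bf and Hist1h2bh, H2B genes of the chromosome 17 cluster, were called lower under every toxin. Those named for Hist1h2bc, Hist1h2bd and Hist1h2bl were called lower in 3-NPA alone, and that for Hist1h2bo in MPP+ alone (-0.66). The Hist1h2bc probe from base 106 is also listed against Hist1h2bd, Hist1h2bh and Hist1h2bo, so these are differences between probes and not between genes. The Hist1h2bf probe starting at base 603 read 1.42 and 1.44 in control, -0.08 and -0.25 in Mn, -0.81 and -0.86 in MPP+, and -1.49 and -1.52 in 3-NPA. The 4 groups did not overlap and stepped down in that order. The differences from control were -1.59 ± 0.09 in Mn (adjusted p = 0.0022), -2.26 ± 0.09 in MPP+ (adjusted p = 0.00055) and -2.94 ± 0.09 in 3-NPA (adjusted p = 7.98e-05), the last a 7.65-fold lower level.

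Hist1h2bh, a second H2B gene, was read by a probe from base 728 and another from base 889. The first read 1.20 and 1.60 in control, -0.57 and -0.66 in Mn, -0.26 and -0.32 in MPP+, and -1.72 and -1.43 in 3-NPA. The other read -1.58 and -1.21, then -3.33 and -3.22, then -2.92 and -3.16, then -4.10 and -4.15 in the same order of groups. In both, every treated array lay below both control arrays, and 3-NPA lay below Mn and MPP+. The differences were -2.01 ± 0.17 and -1.88 ± 0.15 in Mn, -1.69 ± 0.17 and -1.64 ± 0.15 in MPP+, and -2.98 ± 0.17 and -2.73 ± 0.15 in 3-NPA, with adjusted p between 0.00021 and 0.0037. Both probes gave the same calls in all 3 comparisons.

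The H2A and H2B genes of the chromosome 10 group, named Hist3, fell as well. Hist3h2a, read by a probe from base 1444 that is spotted 10 times per array, stood at -1.79 and -1.50 in control, -2.55 and -2.32 in Mn, -3.0 and -3.04 in MPP+, and -3.23 and -3.28 in 3-NPA. No treated array reached the control level. Its differences were -0.79 ± 0.13 (adjusted p = 0.026), -1.38 ± 0.13 (adjusted p = 0.0037) and -1.61 ± 0.13 (adjusted p = 0.00067). Its Mn call held in 2 of the 8 fits that left out an array, those without control replicate 1 or Mn replicate 2, and the adjusted p reached 0.090 without Mn replicate 1. It was also lost with median scaling, array weights and the fit without 3-NPA (adjusted p = 0.051 to 0.065). Hist3h2ba and the Hist3h2bb probe from base 447 fell in all 3 comparisons, by 0.94 to 1.54 on the log2 scale. The other Hist3h2bb probe, from base 608, was above background on 4 arrays and on neither control array. It read -6.08 and -5.47 in control and -4.73 and -4.59 in MPP+, where it was called higher by limma (adjusted p = 0.037). The probe entered the test only through MPP+, the group with both its arrays above background, so a higher level there was favoured in advance. No fold is given, since the control level is only a bound.

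The linker histone gene Hist1h1a fell in all 3 comparisons, from -2.93 and -2.55 in control to between -5.41 and -4.19 in the 6 treated arrays. The clustered H1 genes Hist1h1b (2 probes) and Hist1h1d were called in none of the 3, with differences from -0.45 to 0.55.

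**Figure D2:**
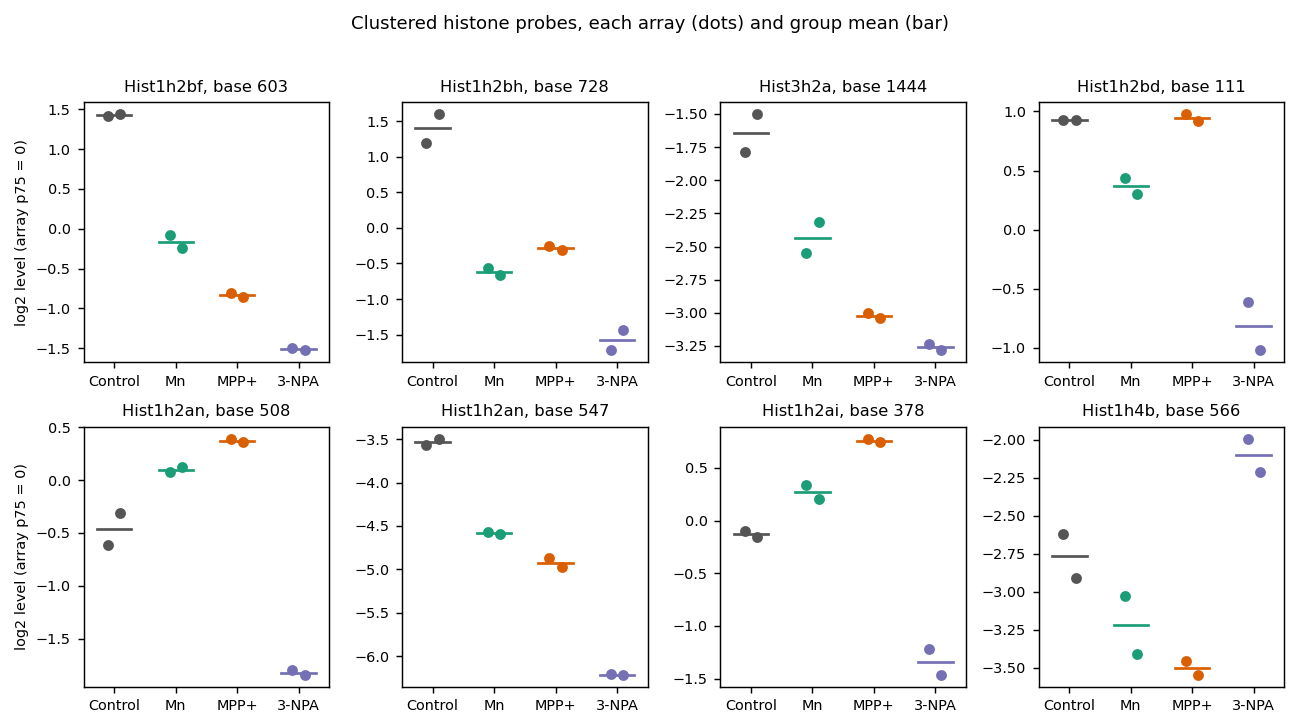
Level on each array (dots, log2 with the 75th percentile of its array at 0) and group mean (bars) of 8 clustered histone probes in control, Mn, MPP+ and 3-NPA. Hist1h2bf, Hist1h2bh and Hist3h2a lay below control under each toxin, Hist1h2bd in MPP+ lay at the control level (0.92 to 0.98 against 0.93), and the 2 Hist1h2an probes moved in opposite directions in Mn and MPP+.

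H2B probes are set out here by where they lie in the transcript. The 4 coding-region probes printed above, which start between bases 90 and 111, were not called in Mn (differences of -0.91 to -0.50) or in MPP+ (-0.10 to 0.02) and were all called lower in 3-NPA (-1.94 to -1.63). Over all probes tested 7.06% were called in Mn and 13.1% in MPP+, so for 4 probes no call lies near the background. Lower calls were 2.9%, 6.04% and 15.4% of all probes in Mn, MPP+ and 3-NPA. Of the 8 tested H2B probes that start between bases 447 and 938, 5 were called lower in Mn, 6 lower and 1 higher in MPP+, and 5 lower in 3-NPA. The higher one, Hist3h2bb from base 608, entered the test only through its MPP+ arrays. Hist2h2be from base 938, which was not called, also entered only through its MPP+ arrays. Both count in the medians that follow, and neither was above background on a control array. The median differences of these 8 probes were -1.08, -1.41 and -1.39, against -0.59, -0.09 and -1.74 for the 4 coding-region probes. The split by position was chosen after the values were seen and was not tested, and the 4 coding-region probes overlap in sequence and are not independent. No H2B gene name had tested probes on both sides of the split, so position and gene cannot be told apart.

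Hist1h2bd, from base 111, shows this among single arrays. It read 0.93 and 0.93 in control, 0.43 and 0.30 in Mn, 0.98 and 0.92 in MPP+, and -0.61 and -1.02 in 3-NPA. MPP+ overlapped control, Mn lay below it without a call (adjusted p = 0.080), and 3-NPA was lower by 3.35-fold (adjusted p = 0.00069). Hist1h2bl, from base 105, read 1.74 and 1.60, 1.1 and 1.23, 1.53 and 1.61, and 0.11 and -0.04 in the same order. Its Mn difference of -0.50 ± 0.11 missed the threshold (adjusted p = 0.0501) and passed it under 5 alternative settings, with an adjusted p of 0.022 to 0.047 among those. The Hist1h2bl difference in 3-NPA was -1.63 ± 0.11 (adjusted p = 0.00035).

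Directly compared with MPP+, all 4 coding-region probes were lower in 3-NPA, by 1.54 to 1.83 on the log2 scale. Against Mn they were lower in 3-NPA by 1.03 to 1.18. In MPP+ against Mn none of the 4 was called, with differences of 0.40 to 0.80. Over the whole histone set, 1 probe was higher and 3 lower in MPP+ than in Mn, beside 8.37% of all probes called (3.87% higher, 4.5% lower). The higher one was again Hist3h2bb from base 608, tested only through its MPP+ arrays. In 3-NPA against Mn 7 were higher and 21 lower, beside 27.2% (16% higher, 11.2% lower). Among those 7, H1foo from base 976 entered the test only through its MPP+ and 3-NPA arrays. In 3-NPA against MPP+ 6 were higher and 18 lower, beside 29.7% (17.3% higher, 12.4% lower). Among those 18 was Hist3h2bb from base 608, tested only through its MPP+ arrays. The directions of these H1foo and Hist3h2bb calls were favoured in advance. The 4 calls in MPP+ against Mn went to 0 by limma without either MPP+ replicate (13 and 9 at an unadjusted p under 0.05), to 1 without Mn replicate 1 and to 2 without Mn replicate 2 or either 3-NPA replicate. The 28 in 3-NPA against Mn went to 18 without Mn replicate 1, 14 without 3-NPA replicate 1 and 11 without 3-NPA replicate 2. The 24 in 3-NPA against MPP+ went to 11 and 15 without MPP+ replicate 1 and 2, and to 13 and 15 without 3-NPA replicate 1 and 2.

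**Figure D3:**
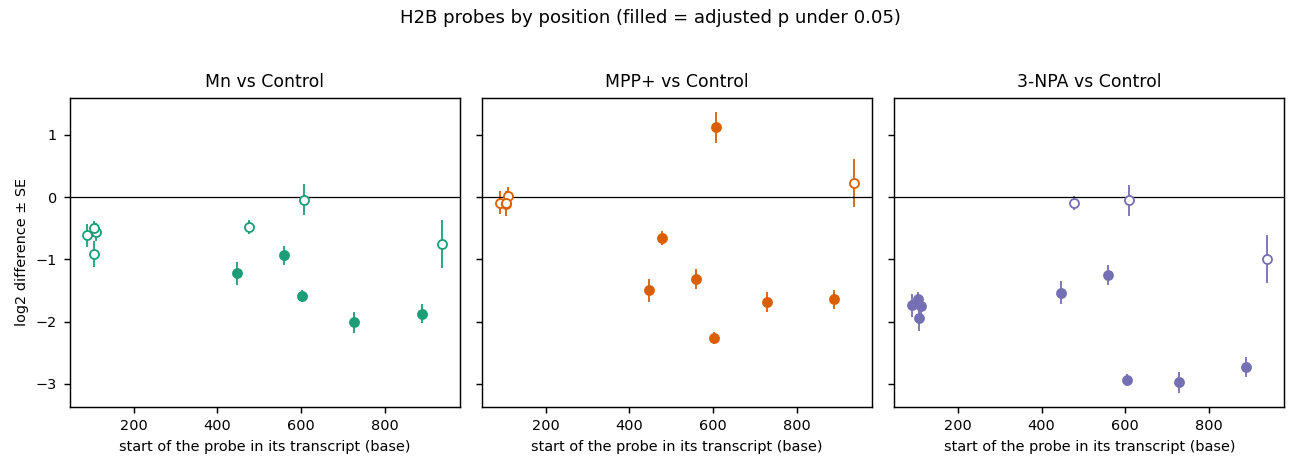
Log2 difference ± SE from control (vertical axis) of the 12 tested H2B probes against the base of the transcript at which each probe starts (horizontal axis), in Mn, MPP+ and 3-NPA. Filled symbols are called; the 4 probes starting at bases 90 to 111 lay between -0.10 and 0.02 in MPP+ and between -1.94 and -1.63 in 3-NPA.

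Promoters of the H2B genes are known for an octamer element bound by the factor Oct-1, and H2A and H2B genes often lie head to head and share the stretch between them. Of the 39 genes, 31 matched a RefSeq promoter (build GRCr8), 22 clustered and 9 variant. The letters ATTTGCAT, on either strand of the 250 bases before the annotated start, occurred in 5 of 8 H2B promoters (62.5%), 4 of 7 clustered H2A, 0 of 4 clustered H1, 0 of 3 clustered H3 and H4, and 1 of 9 variant promoters, beside 1.56% of all 33469 promoters. CCAAT occurred in 20 of 22 clustered promoters and in 34.02% of all promoters, and TATAAA in 12 of 22 and in 12.93%. All 3 searches used both strands, and none of the motifs contains another. The 100 bases before the start are shown for 3 H2B genes, with ATTTGCAT and CCAAT in capitals, under the array's gene name and the symbol RefSeq gives its accession.
Hist1h2bh (Hist1h2bq), GRCr8 chr17:41869342-41869441, minus strand: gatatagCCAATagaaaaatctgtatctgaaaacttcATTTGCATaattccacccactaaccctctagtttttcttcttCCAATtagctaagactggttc
Hist3h2bb (H2bu1), GRCr8 chr10:44233066-44233165, minus strand: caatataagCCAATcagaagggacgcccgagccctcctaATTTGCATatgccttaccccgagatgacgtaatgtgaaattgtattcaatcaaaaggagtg
Hist1h2bc (H2bc12), GRCr8 chr17:47181941-47182040, minus strand: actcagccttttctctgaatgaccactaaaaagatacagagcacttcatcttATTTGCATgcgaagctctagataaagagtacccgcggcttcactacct

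The octamer began 63, 61 and 48 bases before the start in these 3. Genes with and without an exact match were among the H2B genes with probes called lower: Hist3h2ba had no match in this window and was called lower in all 3 comparisons. Any link between the octamer and the differences was not tested.

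Hist1h2an, a clustered H2A gene, gave 2 probes that moved apart. The probe from base 508, up to 5 bases past the stem-loop, read -0.61 and -0.32 in control, 0.08 and 0.12 in Mn, 0.39 and 0.36 in MPP+, and -1.80 and -1.84 in 3-NPA. The groups did not overlap, with MPP+ highest and 3-NPA lowest. The probe from base 547, past the stem-loop, read -3.57 and -3.5 in control, -4.57 and -4.60 in Mn, -4.87 and -4.97 in MPP+, and -6.21 and -6.22 in 3-NPA, and was above background on 1 of the 2 arrays in the last group. Here control was highest. The first was called higher in Mn (0.56 ± 0.12, adjusted p = 0.046) and MPP+ (0.84 ± 0.12, adjusted p = 0.011) and lower in 3-NPA (-1.36 ± 0.12, adjusted p = 0.00075). The second was called lower in Mn (-1.05 ± 0.09, adjusted p = 0.0033), MPP+ (-1.39 ± 0.09, adjusted p = 0.0016) and 3-NPA (-2.68 ± 0.09, adjusted p = 7.98e-05).

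The gap between the 2 Hist1h2an probes on the same array, second minus first, was -2.96 and -3.18 in control, -4.65 and -4.72 in Mn, -5.26 and -5.33 in MPP+, and -4.41 and -4.37 in 3-NPA, where the second probe was above background on 1 of 2 arrays. For Hist1h2an, each toxin group had a wider gap than control, with no overlap. With 2 arrays against 2, an exact permutation test cannot give a p below 0.333. The higher call of the first probe in Mn held in 1 of the 8 fits that left out an array, the one without control replicate 2, and its adjusted p reached 0.12 in the others. It was also lost with the replicate number as a block (adjusted p = 0.068), normexp background (0.097), median scaling (0.063), array weights (0.10), only the 4 arrays of the pair (0.24) and the fit without 3-NPA (0.10). In MPP+ that call was lost without MPP+ replicate 1 (adjusted p = 0.075) and without MPP+ replicate 2 (adjusted p = 0.079).

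Hist1h2ai, a second H2A gene whose probe ends 8 bases past the stem-loop, read -0.10 and -0.16 in control, 0.33 and 0.21 in Mn, 0.78 and 0.74 in MPP+, and -1.22 and -1.47 in 3-NPA. The order of the groups was that of the first Hist1h2an probe. It was called higher in MPP+ (0.89 ± 0.11, adjusted p = 0.0079) and lower in 3-NPA (-1.21 ± 0.11, adjusted p = 0.00095), and not in Mn (0.40 ± 0.11, adjusted p = 0.095). The MPP+ call was lost without MPP+ replicate 1 (adjusted p = 0.062) and without MPP+ replicate 2 (adjusted p = 0.065).

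The 6 other probes on the array that hold the stem-loop belong to no gene name of the set, and 2 of these are described as histone in the files. Together with the 3 members, 6 probes run 5 to 13 bases past the stem-loop and 3 run 33 to 44 bases past it. The 3 longer ones were all called lower in MPP+ (-2.76 to -1.39) and in 3-NPA (-2.68 to -1.30), and 2 of 3 in Mn (-1.93 to -0.56 over the 3). Of the 6 shorter ones, 2 were called higher and none lower in Mn, 2 higher and 1 lower in MPP+, and 4 lower and none higher in 3-NPA, with medians of 0.31, 0.40 and -1.28. Over all probes tested, 2.9%, 6.04% and 15.4% were called lower in Mn, MPP+ and 3-NPA, and 4.16%, 7.09% and 21.6% higher. The division by length was made after the values were seen and was not tested. Among H2B probes, Hist3h2bb from base 447 ends within the stem-loop, at the first 14 of its 16 bases, and fell in all 3 comparisons. The other Hist3h2bb probe, from base 608, lies past the stem-loop. The gap between these 2 probes was narrower in MPP+ than in control, the opposite of Hist1h2an. The probe from base 608 was above background on no control array and entered the test only through MPP+, so no size is given. The contrast between the 2 genes was not tested. The poly(A) signal letters AATAAA occurred in 5 of the 53 histone probes (9.43%) and in 8.39% of all gene probes, in the sense direction.

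**Figure D4:**
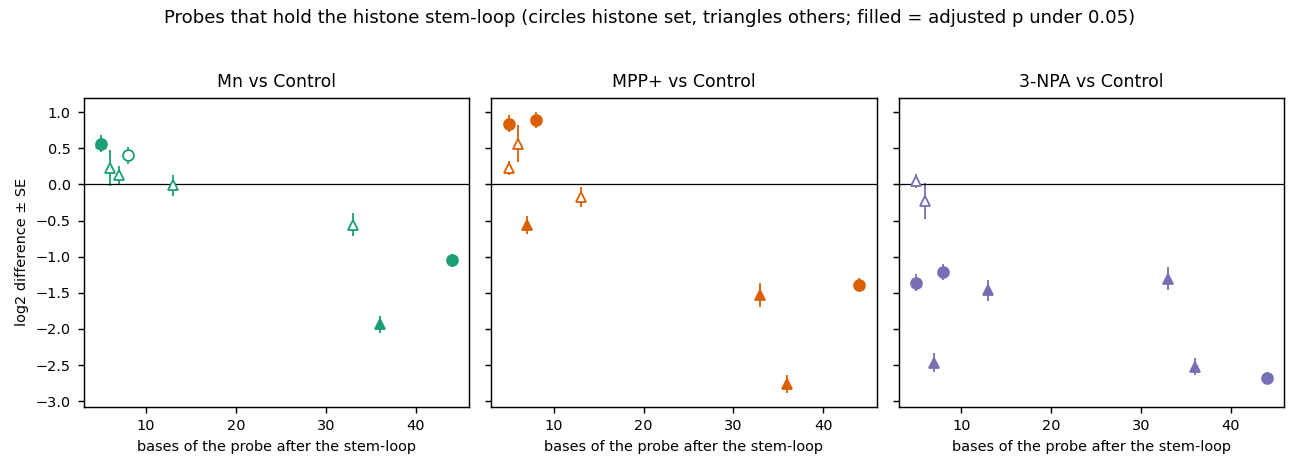
Log2 difference ± SE from control (vertical axis) of the 9 probes that hold the histone stem-loop against the number of probe bases that follow it (horizontal axis), in Mn, MPP+ and 3-NPA; circles are histone set members, triangles other probes, filled symbols are called. The 3 probes with 33 to 44 bases past it lay below 0 in all panels, and at 5 bases in Mn a circle and a triangle overlap at 0.56 and 0.58.

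Most of the remaining clustered H2A probes were not called. The 3 Hist1h2af probes, Hist1h2ak and Hist2h2ac were called in no comparison with control, with differences of -0.12 to 0.33. Hist1h2ail fell in 3-NPA alone among the 3 comparisons, by 1.00 on the log2 scale, and Hist1h2ac in MPP+ alone, by 1.03.

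H4, which pairs with H3 in the nucleosome core, was called lower at 3 of 6 probes under Mn and 5 under MPP+, and 3-NPA gave 4 lower and 1 higher. Over all probes 2.9%, 6.04% and 15.4% were lower in Mn, MPP+ and 3-NPA, and 21.6% were higher in 3-NPA. Hist1h4b, read from base 261, stood at 2.98 and 3.14 in control, 2.45 and 2.51 in Mn, 2.05 and 1.98 in MPP+, and 2.12 and 2.02 in 3-NPA. The MPP+ and 3-NPA arrays overlapped each other and lay below Mn. Its differences were -0.58 ± 0.10 (adjusted p = 0.026), -1.04 ± 0.10 (adjusted p = 0.0035) and -0.99 ± 0.10 (adjusted p = 0.0011). The Mn call held in 1 of 8 fits that left out an array, the one without control replicate 1, and its adjusted p reached 0.090. It was also lost with normexp background, median scaling, array weights and the fit without 3-NPA (adjusted p = 0.065 to 0.080). The 2 Hist1h4m probes and the Hist2h4 probe from base 196 were lower by 0.36 to 0.65 in Mn and MPP+, with 5 of the 6 values called, and by 0.87 to 1.04 in 3-NPA, all called. The Hist2h4 probe from base 12, above background on 6 arrays and on no control array, was not called (0.15, 0.30 and -0.71). The clustered H3 gene on the array, Hist2h3c2, was called in 3-NPA (-1.06) and not in Mn (0.07) or MPP+ (0.18).

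The Hist1h4b probe from base 566 went another way in 3-NPA. It read -2.62 and -2.91 in control, -3.03 and -3.41 in Mn, -3.45 and -3.55 in MPP+, and -2.0 and -2.21 in 3-NPA. In 3-NPA both arrays lay above all others. It was called lower in MPP+ (-0.74 ± 0.17, adjusted p = 0.043) and higher in 3-NPA (0.66 ± 0.17, adjusted p = 0.028). In rn4 this probe lies at chr17:50117213-50117272 and the first Hist1h4b probe at chr17:50113760-50113819, and the files assign both to the same gene. The MPP+ call held only in the fits without Mn replicate 1 or 2 of the 8 that left out an array, and the adjusted p reached 0.20. It was also lost with quantile normalization (0.063), median scaling (0.058) and the fit without 3-NPA (0.076). The 3-NPA call was lost without control replicate 2 (adjusted p = 0.10), either MPP+ replicate (0.054) or 3-NPA replicate 1 (0.14) or 2 (0.066), and with median scaling (0.054).

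Among variant histones, H2A.Z and H3.3 fell in 3-NPA. H2afz encodes H2A.Z, which replaces H2A at promoters, and its probe from base 371 read 4.55 and 4.71 in control, 4.09 and 4.33 in Mn, 4.34 and 4.27 in MPP+, and 3.46 and 3.65 in 3-NPA. The 3-NPA arrays lay below the other 6. The difference was -1.08 ± 0.13 (adjusted p = 0.0019), against -0.42 in Mn and -0.33 in MPP+, neither called. The second H2afz probe, from base 743, read 6.03 and 6.19, 6.20 and 5.71, 5.98 and 5.93, and 5.47 and 5.29 in the same order, with a 3-NPA difference of -0.73 ± 0.17 (adjusted p = 0.021). That call was lost without control replicate 2 (adjusted p = 0.079), 3-NPA replicate 1 (0.062) or 3-NPA replicate 2 (0.11).

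H3f3b, 1 of the genes for the replacement histone H3.3, read 6.70 and 6.68 in control, 6.70 and 6.24 in Mn, 6.27 and 6.28 in MPP+, and 5.95 and 5.67 in 3-NPA. The Mn arrays overlapped control and the 3-NPA arrays lay lowest. The 3-NPA difference was -0.87 ± 0.17 (adjusted p = 0.012), with an adjusted p of 0.067 without 3-NPA replicate 2. H2afx, whose product is phosphorylated at DNA breaks, read 0.81 and 0.66, 0.03 and 0.52, 0.18 and 0.30, and -0.05 and 0.12. Its difference in 3-NPA was -0.70 ± 0.18 (adjusted p = 0.025). The H2afx call was lost without either control replicate (adjusted p = 0.092 and 0.052) or either 3-NPA replicate (0.12 and 0.071).

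The variant genes H1f0 and H2afj rose in 3-NPA. H1f0, the replacement linker histone H1.0, known from resting and differentiated cells, was read from base 24 at -0.74 and -0.75 in control, -0.96 and -0.49 in Mn, -0.30 and -0.41 in MPP+, and -0.01 and 0.06 in 3-NPA. From base 1759 it read 5.83 and 5.90, 5.90 and 5.78, 5.96 and 5.88, and 6.46 and 6.31. On both probes the 3-NPA arrays lay above the other 6. The 3-NPA differences were 0.77 ± 0.16 (adjusted p = 0.013) and 0.52 ± 0.10 (adjusted p = 0.011). The first was lost without 3-NPA replicate 1 (adjusted p = 0.058) or 2 (0.071), and the second without 3-NPA replicate 1 (0.072) and with each array set at its median (0.056).

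H2afj, encoding H2A.J, a replacement H2A, read 4.62 and 4.71 in control, 4.52 and 4.66 in Mn, 4.71 and 4.60 in MPP+, and 5.09 and 5.0 in 3-NPA from base 290. From base 425 it read 5.07 and 5.37, 4.97 and 5.04, 5.07 and 5.09, and 5.58 and 5.66. Both probes were highest in 3-NPA. The differences were 0.39 ± 0.10 (adjusted p = 0.029) and 0.40 ± 0.12 (adjusted p = 0.048). These are small, and the calls held in 3 and 1 of the 8 fits that left out an array, with the adjusted p up to 0.15 and 0.19. The exceptions that kept the call were the fits without control replicate 2 or an Mn replicate for the first probe, and without control replicate 2 for the second. With each array set at its median, neither was called (adjusted p = 0.16 and 0.25). The first was also lost with normexp background (adjusted p = 0.12), and the second with no filter (0.059) and the looser rule on background (0.0504).

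Among the other variant probes there was 1 call. H1fx, a linker histone variant, read -1.83 and -1.44 in control, -2.06 and -2.12 in Mn, -2.24 and -2.23 in MPP+, and -1.91 and -1.99 in 3-NPA. All treated arrays lay below control, and MPP+ alone was called (-0.60 ± 0.14, adjusted p = 0.043). The H1fx call held in 1 of the 8 fits that left out an array, the one without control replicate 1, and the adjusted p reached 0.19. In that fit H1fx was called in Mn (-0.65, adjusted p = 0.036) and in 3-NPA (-0.51, adjusted p = 0.020) as well. The MPP+ call was also lost with the replicate number as a block (adjusted p = 0.064), quantile normalization (0.062), median scaling (0.12) and the fit without 3-NPA (0.086). H2afy, the gene of macroH2A1, was read by a probe from base 781 at -3.52 and -4.06 in control, -3.45 and -3.43 in Mn, -3.0 and -3.15 in MPP+, and -3.66 and -3.72 in 3-NPA. Control overlapped 3-NPA, and the MPP+ difference of 0.72 ± 0.18 missed the threshold (adjusted p = 0.051) and passed it without control replicate 1 (adjusted p = 0.014). Its second probe, from base 1442, differed by -0.21 ± 0.10 in MPP+ and was not called. H1foo, an oocyte linker histone, was above background on 4 arrays, those of MPP+ and 3-NPA, and not called against control.

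**Figure D5:**
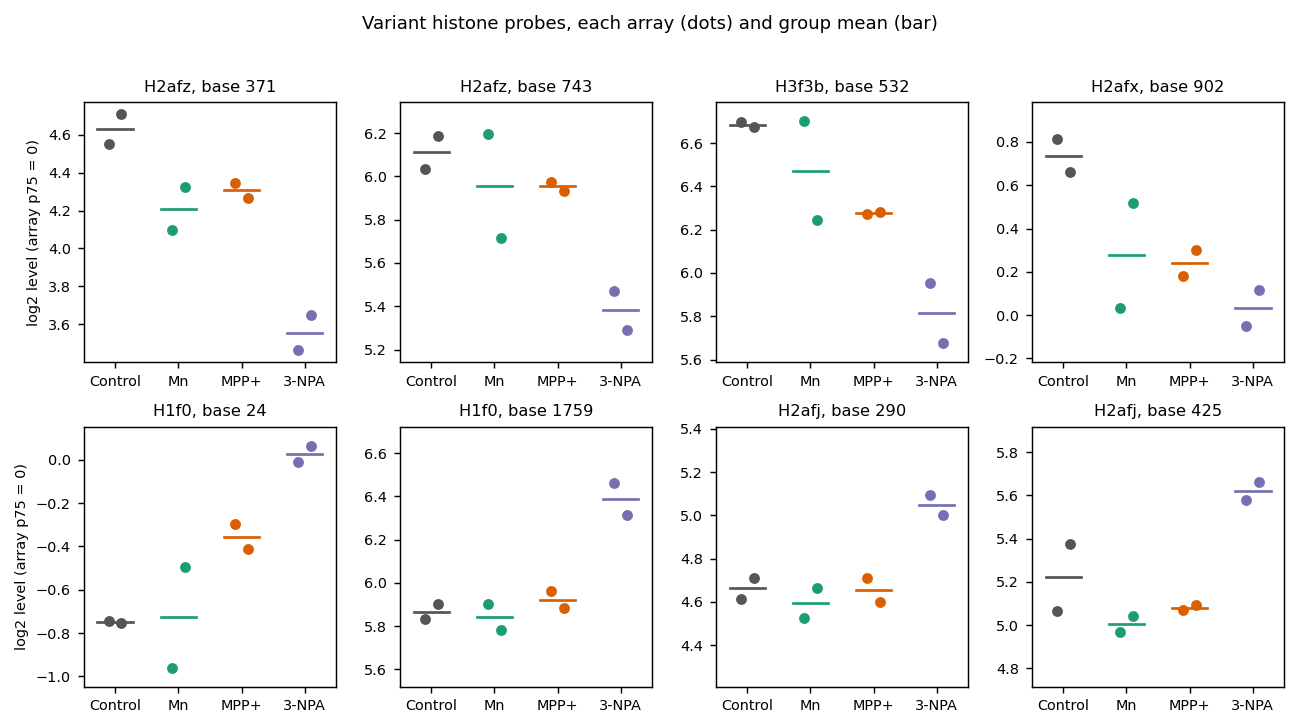
Level on each array (dots, log2 with the 75th percentile of its array at 0) and group mean (bars) of 8 variant histone probes in control, Mn, MPP+ and 3-NPA. The group means of H2afz, H3f3b and H2afx were lowest in 3-NPA and those of H1f0 and H2afj highest; axes differ between panels.

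Genes that act with histones were read from lists, each gene by its brightest probe. Of 20 genes of DNA synthesis and S phase, none was called in Mn by limma (1 at an unadjusted p under 0.05), 1 rose and 1 fell in MPP+, and 1 rose and 10 fell in 3-NPA, with median differences of -0.03, -0.22 and -0.39. Over all probes 7.06% were called in Mn and 13.1% in MPP+, and in 3-NPA 37% were called and 15.4% were lower. In 3-NPA the cyclin gene Ccna2 differed by -0.94, thymidylate synthase Tyms by -0.92 and the ribonucleotide reductase subunit Rrm2 by -0.69, while Mcm2, part of the replicative helicase, rose by 0.44. The second Rrm2 probe was called lower in all 3 comparisons (-0.54, -0.51 and -1.35).

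Of 18 histone chaperone genes on the array, none was called in Mn by limma (3 at an unadjusted p under 0.05), beside 7.06% of all probes. Asf1b alone was called in MPP+ (-0.40), beside 6.04% of all probes lower. In 3-NPA 3 fell, a share near the 15.4% of all probes that were lower. These were Asf1b, which hands H3 and H4 to the replication machinery (-0.64), Nap1l1, a chaperone of H2A and H2B (-0.67), and Nasp, which binds free histones (-0.45). Of 10 tested genes of histone mRNA processing, none was called in Mn or in MPP+ by limma (1 in each at an unadjusted p under 0.05). Over all probes 7.06% and 13.1% were called, so for 10 genes a count of 0 lies near the background. In 3-NPA 2 fell, Lsm10 of the U7 particle (-0.46) and the endonuclease gene Cpsf3 (-0.60), and Slbp was called higher at its brighter probe (0.39 ± 0.10, adjusted p = 0.031), beside 37% of all probes called. The second Slbp probe disagreed, with -0.67 ± 0.14 in 3-NPA (adjusted p = 0.014) and -0.63 ± 0.14 in MPP+ (adjusted p = 0.038). Cenpa, the centromeric H3 variant, which the name rule leaves out, fell in 3-NPA (-0.86 ± 0.13, adjusted p = 0.0043) and was not called in Mn (-0.53) or MPP+ (-0.15).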

How the data were processed

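RNA was hybridised to 8 one-colour Agilent arrays, and the scanner files were used. Per the file headers, the authors' intensity values are processed signals of Agilent Feature Extraction 11.5.1.1, background-subtracted, with probe positions in rn4. The deposited value table, used as an alternative, holds log2 values whose scale, centring and direction are not given in the sources used here. Its columns correlated at 0.997 to 1.00 with the values computed here. Its column medians were -3.99 and -4.11 in control, -4.30 and -4.31 in Mn, -4.34 and -4.38 in MPP+, and -4.08 and -4.16 in 3-NPA.

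From the scanner files, spots of a probe were averaged as log2 intensity, and the array's 75th percentile was subtracted. Group means were fitted with limma 3.58.1 in R 4.3.3 over all 4 groups, with Benjamini-Hochberg adjustment over 19460 probes and no covariate. A probe counted as well above background on an array where over 0.5 of its unflagged spots were. The fit was tested on simulated data. Motifs were searched with Python 3.11.15, in the probe sequences of the files and in RefSeq promoters. Of the members, 46 probes matched a RefSeq accession.

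The members, gene lists and tests were chosen with earlier results of these data known. Named in full were the 10 clustered and 10 variant probes with the smallest p against control and any probe called in opposite directions; other members are given by range, and up to 5 genes of a list by smallest p. Lists covered histone mRNA processing, histone chaperones, S phase, Cenpa, and markers of dopaminergic, neuronal, progenitor, astrocyte, microglia and fibroblast cells. Replicate numbers were checked as pairs over the 6 pairs of groups. The deviations of same-numbered arrays correlated at 0.48 between Mn and 3-NPA and at -0.02 to 0.11 between the other groups. The numbers were not used as a block in the main fit, and a fit with them is given as an alternative. The number of arrays limits the precision. Alternatives were another background correction, scaling, filter, probe choice, variance model, sample set and a 2-fold minimum, and leaving out each array.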

Additional observations from a re-analysis of the deposited data

Results flagged for a closer look

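Of the histone probes, 3 were called in opposite directions against control by different toxins, with the direct comparison past the threshold of limma as well. They were picked by these opposite calls, so a large direct difference was favoured in advance and is no further support. The share of all probes that meets the same rule was not computed. The Hist1h2an probe from base 508 was higher than control in Mn and in MPP+ and lower in 3-NPA, the Mn call being lost with the replicate number as a block (adjusted p = 0.068). It differed by -1.92 between 3-NPA and Mn (adjusted p = 0.00041) and by -2.19 between 3-NPA and MPP+ (adjusted p = 0.00025). The Hist1h2ai probe from base 378 was higher in MPP+ and lower in 3-NPA, and differed by -2.10 between 3-NPA and MPP+ (adjusted p = 0.00026). The Hist1h4b probe from base 566 was lower in MPP+ and higher in 3-NPA, and differed by 1.40 between 3-NPA and MPP+ (adjusted p = 0.0029). In each, both arrays of the first group lay on the same side of both arrays of the second, which the choice also favoured.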

How the results depend on the processing

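No called value of the 21 probes named in full changed sign under any alternative, and of their 1341 values under alternatives 1204 kept their side of the threshold, 120 lost the call and 17 gained it; 20 values that were not called changed sign. Besides leaving out arrays, the 2-fold minimum ended 16 of the named calls and the 4 arrays of the pair 13. The cause of the shifts below was not tested.

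The number of histone probes called in Mn (12) was 7 with median scaling, 20 with no filter, 4 with array weights, 6 at 2-fold or more, and 0 by limma with only the 4 arrays of the pair (19 of 46 at an unadjusted p under 0.05). In MPP+ (19) it was 12 with the 4 arrays and 11 at 2-fold, and in 3-NPA (29) 17 at 2-fold. In MPP+ against Mn (4) it was 7 with normexp, 2 with median scaling, with no filter, with the 6 arrays other than 3-NPA and at 2-fold, 8 when all 8 arrays had to be above background, 9 with trend and robust, and 1 with the 4 arrays. The other comparisons gave 18 with the brightest probe and 10 at 2-fold in 3-NPA against Mn (28), and 14 and 13 in 3-NPA against MPP+ (24). Leaving out an array gave 4 to 8 calls in Mn, 7 to 16 in MPP+, 22 to 28 in 3-NPA, 0 to 5 in MPP+ against Mn (13 at an unadjusted p under 0.05 without MPP+ replicate 1 and 9 without MPP+ replicate 2, where limma called 0), 11 to 27 in 3-NPA against Mn and 11 to 26 in 3-NPA against MPP+.

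Median differences moved as follows. With normexp, clustered probes gave -0.27 in Mn and -0.79 in 3-NPA, variant probes -0.015, H1 -0.078 and H2A -0.0087 in 3-NPA, H2B -0.59, -0.29 and -1.57 and H4 -0.35, -0.53 and -0.79 in Mn, MPP+ and 3-NPA. With quantile normalization, clustered probes gave -0.080 in MPP+, H1 0.062, -0.021 and 0.064 in Mn, MPP+ and 3-NPA, H2A -0.012 and -0.042 and H2B -0.59 and -0.36 in Mn and MPP+. With median scaling, H1 gave -0.45 in 3-NPA, H2A -0.019, -0.037 and -0.34 in Mn, MPP+ and 3-NPA, and H4 -0.50 and -1.05 in MPP+ and 3-NPA. With all 8 arrays above background, H1 gave 0.021 in Mn, H2A -0.063 and H2B -0.99 in MPP+. With the looser rule, H2A gave -0.063 and H2B -0.38 in MPP+, and H1 -0.16 and variant probes 0.096 in 3-NPA. The brightest probe gave -0.17 for H1 and -0.46 for H2A in 3-NPA, and the deposited table -0.35 for H2B in MPP+. Leaving out an array, H1 ran from -0.30 to -0.015 in Mn, -0.32 to -0.018 in MPP+ and -0.44 to -0.17 in 3-NPA, H2A from -0.22 to -0.039 in Mn and -0.19 to -0.034 in MPP+, H2B from -1.95 to -1.54 and H4 from -1.0 to -0.88 in 3-NPA.

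Replicate numbers were not used as a block in the main fit, though the deviations of same-numbered Mn and 3-NPA arrays correlated at 0.48. With the replicate number as a block, 9, 17 and 29 histone probes were called against control, and 3, 27 and 23 in MPP+ against Mn, 3-NPA against Mn and 3-NPA against MPP+. Higher calls over all probes were 73.75% of calls in Mn and 65.3% in MPP+ with quantile normalization, and 39.1% in MPP+ with normexp. Dim probes limit what can be read: 5 tested histone probes were not above background on every array.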
